A study of Mus musculus with 6 samples.

Results

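The genes described here encode the enzymes that build cholesterol and fatty acids, the regulators that set the activity of both pathways, and 1 sterol carrier. They were chosen by name from a list of 29 symbols, and 28 were found among the 37991 gene identifiers of the count tables. Hmgcs1, the synthase that feeds the mevalonate pathway, did not match a symbol of the annotation used here and was not analysed here. The 28 genes comprise 16 enzymes of sterol synthesis, 5 regulators, the sterol carrier gene Stard4 and 6 genes of fatty acid synthesis. All 28 passed the filter on low counts, which left 16683 genes to be tested.

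Cholesterol is made from acetyl-CoA through mevalonate, isoprenoid diphosphates, squalene and lanosterol, and the isoprenoid intermediates also supply ubiquinone, dolichol and the lipid anchors of proteins. Fatty acids are made from cytosolic acetyl-CoA, which ATP citrate lyase releases from citrate, acetyl-CoA carboxylase converts to malonyl-CoA and fatty acid synthase assembles into palmitate, before elongases and desaturases modify the chain. The transcription factors encoded by Srebf1 and Srebf2 are held in the endoplasmic reticulum by SCAP and the INSIG proteins when sterols are plentiful. They are cut and move to the nucleus when sterols are scarce, and in lymphocytes both pathways are known to be used when cells grow and divide.

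The libraries were made from polyadenylated RNA of pre-B cells of the C57BL/6 mouse, which had been purified from bone marrow by flow cytometry for high B220 and low surface IgM and IgD. Wild-type animals were killed at 4 to 6 weeks of age, premalignant animals, which were heterozygous for the Eμ-Myc transgene, at the same age, and malignant animals of the same genotype when a spontaneous lymphoma had formed, at 10 to 20 weeks. In the Eμ-Myc model the immunoglobulin heavy chain enhancer drives Myc in B-lineage cells from early in development, and the lymphomas that follow are clonal. The labels give this gate for every stage, while the study's methods give B220+ cells negative for IgM and IgD for malignant animals. Each stage was represented by 2 libraries, described as biological replicates, and the study names animals as the replicates of its sorted cells in general. Malignancy, age, any difference in gate and, as the methods give female animals for the first 2 stages and either sex for the malignant stage, sex cannot be told apart in comparisons with malignant cells.

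Total counts ranged from 51065861 to 53453055 in the replicate 1 libraries and from 30031100 to 34543633 in the replicate 2 libraries, so that 3 counts corresponded to between 0.0526 and 0.108 CPM (counts scaled to a TMM-normalized library of 1000000). Myc, which the transgene carries, was at 33.8 and 41.4 CPM in wild-type cells, 1164 and 1155 in premalignant cells and 1732 and 1578 in malignant cells, and reads of the transgene and the endogenous gene cannot be told apart. The 9 pre-B markers examined summed to 6700 and 7606 CPM in wild-type cells and to between 2770 and 3345 in the other libraries. Vpreb1 and Igll1, which encode the surrogate light chain of pre-B cells, were lower in all Eμ-Myc libraries. Vpreb1 was at 115 and 131 CPM in wild-type, 9.74 and 4.88 in premalignant and 0.146 and 4.05 in malignant libraries, and Igll1 at 197 and 195, then 18.8 and 9.58, then 0.167 and 7.56. The malignant libraries thus stood far apart from each other for both genes. Myeloid and erythroid markers stood highest in wild-type cells, above all in wild-type replicate 2. Myeloid markers summed to 836 and 1828 CPM in wild type, 248 and 266 in premalignant and 60.5 and 120 in malignant cells. For erythroid markers the sums were 380 and 1379 CPM, then 78.5 and 167, then 56.8 and 67.0. T cell markers summed to between 77.9 and 120 CPM in wild type and between 13.2 and 74.0 elsewhere. The 74.0 was that of malignant replicate 2, in which Lck was at 64.1 CPM and each other T cell marker at 6.45 or below. Adipocyte and stromal markers summed to between 0.305 and 4.87 CPM over all libraries, with the adipocyte lipid droplet gene Plin1 at 0 throughout. Against wild type, 8 of the 9 pre-B markers were called lower in premalignant and 8 in malignant cells. Likewise, 9 of 9 myeloid, 6 of 7 erythroid and 5 of 7 T cell markers were called lower in premalignant and 8, 6 and 5 in malignant cells. Of all tested genes, 20.3% were called lower in the former and 24.3% in the latter comparison. The part of myeloid, erythroid, T and stromal cells in the results below was not tested.

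Genes were called when the Benjamini-Hochberg adjusted p of edgeR's quasi-likelihood test was at most 0.1 and the log2 fold change was at least 0.5 in size. Between premalignant and wild-type cells, 7 of the 28 genes were called higher and 1 lower, against 19% and 20.3% of all tested genes. In malignant compared with wild-type cells 13 genes were called higher, against 24.9% of all genes, and 0 lower, against 24.3%. At an unadjusted p under 0.05 the latter comparison also gave 13 higher and 0 lower, as did DESeq2. Malignant and premalignant cells differed in 2 genes, both higher in malignant cells, against 3.73% of all genes called higher and 2.45% called lower. At an unadjusted p under 0.05, 4 members were higher and 1 lower in that last comparison, and DESeq2 called 3 higher and 1 lower. The median log2 fold change of the 28 genes was 0.26, 0.40 and 0.28 in the 3 comparisons in this order, and that of all tested genes was -0.08, -0.02 and 0.04. The premalignant share of genes called higher was thus near that of all genes, while the malignant share was larger. In a bulk sample, fewer cells that express a gene and less of its RNA per cell cannot be told apart.

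**Figure D1:**
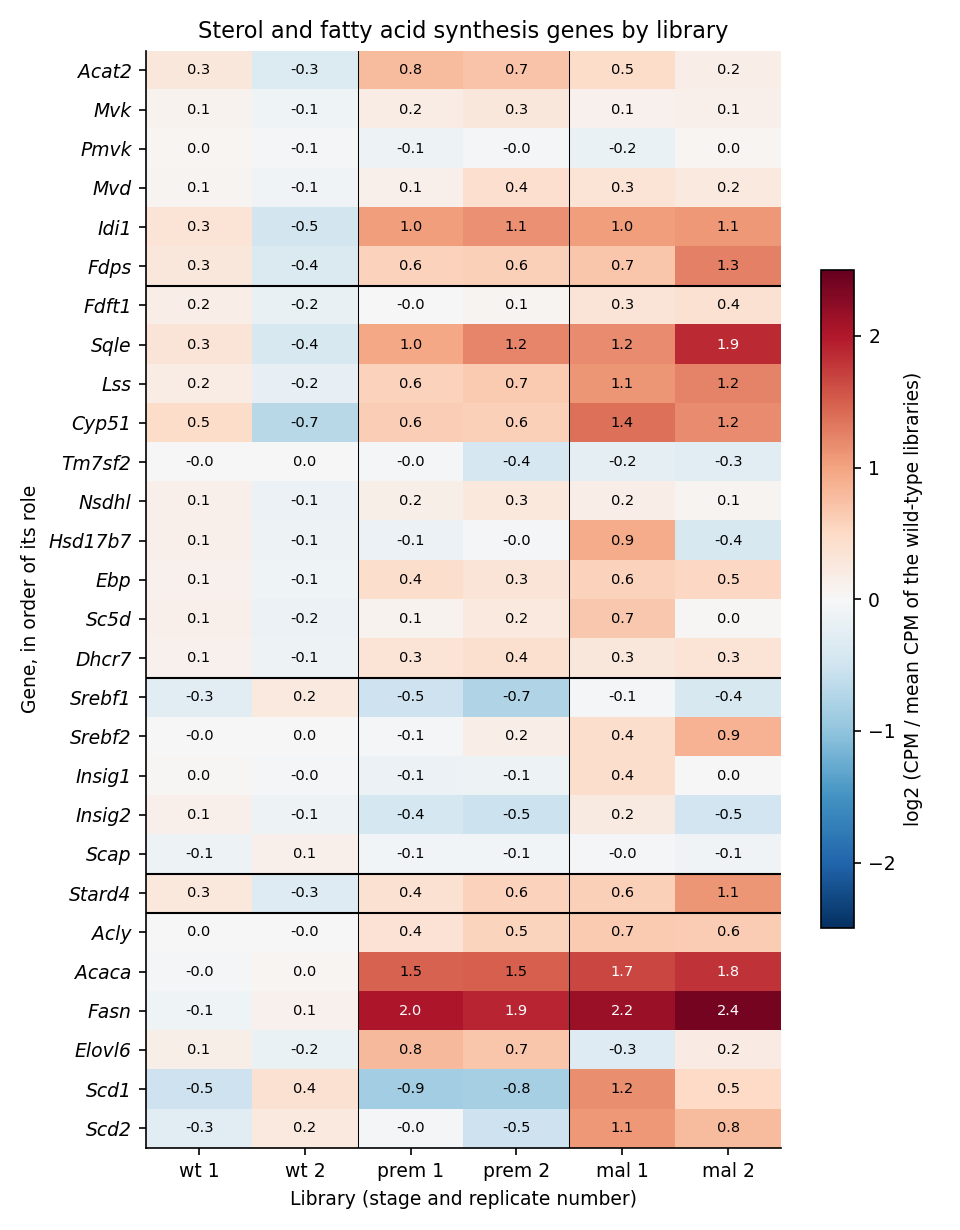
Heat map of 28 genes (rows, in order of role, with lines between the mevalonate arm, the squalene and sterol arm, the regulators, Stard4 and fatty acid synthesis) in 6 libraries (columns). Each field gives the log2 ratio of CPM to the mean CPM of the wild-type libraries, and wt, prem and mal on the axis stand for the 3 stages. Fasn, Acaca and Idi1 are high in all 4 Eμ-Myc libraries, at log2 ratios above 1.

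Several patterns of calls were seen across the comparisons, which share libraries. Idi1, Sqle, Lss, Acaca and Fasn were called higher in both premalignant and malignant cells than in wild-type cells. A further 6 genes, Fdps, Cyp51, Ebp, Srebf2, Stard4 and Acly, were called only in malignant against wild-type cells. The desaturase genes Scd1 and Scd2 were called higher in malignant cells against both other stages. Acat2 and Elovl6 were called higher, and Srebf1 lower, only in premalignant against wild-type cells. The remaining 12 genes were not called in any comparison. A call in 1 comparison and not in another does not show that the effects differ.

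Promoter sequence was available for 22 of the 28 genes in a RefSeq table on the GRCm38.p6 build, which gives 250 bases before and 50 bases after each start. Fdps, Fdft1, Sqle, Scd1, Scd2 and Stard4 were not in it. The windows below run from 120 bases before the start to the 30 bases that begin the transcript, in the direction of transcription. They show 4 genes that were called higher in malignant cells and 2, Mvd and Mvk, that were not called, chosen after the values and matches were seen, with CCAAT or its reverse complement ATTGG in capitals, and GGGCGG or its reverse complement CCGCCC likewise.
Fasn (chr11:120824518-120824667, minus strand): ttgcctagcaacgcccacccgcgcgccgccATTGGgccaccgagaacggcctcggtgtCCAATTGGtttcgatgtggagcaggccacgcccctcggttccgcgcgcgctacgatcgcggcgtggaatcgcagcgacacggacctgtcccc
Idi1 (chr13:8885486-8885635, plus strand): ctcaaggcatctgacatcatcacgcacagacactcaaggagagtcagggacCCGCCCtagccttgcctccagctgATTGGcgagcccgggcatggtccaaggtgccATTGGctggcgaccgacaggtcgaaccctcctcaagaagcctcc
Lss (chr10:76531485-76531634, plus strand): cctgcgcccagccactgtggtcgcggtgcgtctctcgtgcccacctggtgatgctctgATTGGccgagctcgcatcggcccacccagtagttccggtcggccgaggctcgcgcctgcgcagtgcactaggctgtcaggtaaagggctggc
Cyp51 (chr5:4104668-4104817, minus strand): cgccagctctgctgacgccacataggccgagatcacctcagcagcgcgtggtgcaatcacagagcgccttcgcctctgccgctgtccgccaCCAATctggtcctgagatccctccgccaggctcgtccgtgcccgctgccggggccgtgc
Mvd (chr8:122443393-122443542, minus strand): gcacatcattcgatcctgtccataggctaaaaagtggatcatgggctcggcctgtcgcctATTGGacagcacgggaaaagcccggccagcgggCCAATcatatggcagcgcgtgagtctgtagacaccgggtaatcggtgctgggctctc
Mvk (chr5:114444149-114444298, plus strand): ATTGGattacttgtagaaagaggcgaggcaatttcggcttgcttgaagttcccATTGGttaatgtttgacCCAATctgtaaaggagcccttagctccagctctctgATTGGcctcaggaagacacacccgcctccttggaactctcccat
The Fasn window held 3 CCAAT matches, of which a pair on opposite strands overlaps, the Mvk window 4, Idi1 and Mvd 2 each and Lss and Cyp51 1 each.

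Over the whole 300-base promoters, searched on both strands with overlaps counted, CCAAT, the letters that the SREBP partner NF-Y is known to bind, was found in 18 of the 22 genes (81.8%) and in 63.3% of their 30 promoters. Acat2, Acaca, Elovl6 and Scap lacked it. It was found in 37.4% of the 32851 promoters of the table and in 43% of the tested genes with a promoter there. The GC box GGGCGG, a site of Sp1, was also found in 18 genes (81.8%), compared with 65% of tested genes. The E-box CACGTG, which MYC and MAX bind, was in Hsd17b7, Sc5d, Dhcr7, Insig1 and Scap, or 22.7% of the genes, compared with 11.4% of tested genes. None of these 5 genes was called in any of the 3 comparisons by the main fit. The called genes Fdps, Sqle, Scd1, Scd2 and Stard4 had no promoter in the table and could not be searched. Any relation of the E-box to the calls was not tested. The letters TCACNCCAC, the only form of the sterol regulatory element searched, occurred in 0 of the 22 genes and in 1.45% of tested genes. Other forms were not searched, so the 0 does not show that these promoters lack the element. All matches given here describe letters, not occupied sites.

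The mevalonate arm leads from acetyl-CoA to farnesyl diphosphate, and its 6 genes were called higher 2 times in each comparison with wild type. The share of all genes called higher was 19% in premalignant and 24.9% in malignant cells. Idi1, the isomerase that balances the isoprenoid building blocks, was at 7.92 and 4.53 CPM in wild-type, 12.8 and 13.7 in premalignant and 12.8 and 13.2 in malignant cells. Every Eμ-Myc library lay above both wild-type libraries. Idi1 was higher by a log2 fold change of 1.08 (SE 0.31, adjusted p = 0.044) in premalignant and 1.06 (SE 0.31, adjusted p = 0.0361) in malignant cells. The 2 Eμ-Myc stages overlapped, at a log2 difference of -0.03 (SE 0.31). Fdps, which makes farnesyl diphosphate, was at 23.4 and 15.0 CPM in wild type, 28.5 and 29.2 in premalignant and 31.2 and 46.2 in malignant cells. The malignant libraries differed from each other by more than the premalignant ones did. The log2 fold change of Fdps was 0.58 (SE 0.28, adjusted p = 0.161) in premalignant and 1.01 (SE 0.28, adjusted p = 0.0301) in malignant cells against wild type. Acat2, the thiolase of the first step, was at 17.7 and 11.5 CPM in wild type, 25.1 and 23.9 in premalignant and 20.1 and 16.4 in malignant cells. It was highest in premalignant cells, with a log2 fold change of 0.75 (SE 0.26, adjusted p = 0.0711) against wild type, and malignant and wild-type libraries overlapped.

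The kinases and the decarboxylase of the same arm differed little across the libraries. Mvk, mevalonate kinase, lay between 8.01 and 10.5 CPM in all 6 libraries, Pmvk, phosphomevalonate kinase, between 13.6 and 15.7, and Mvd, the decarboxylase, between 7.14 and 10.1. All Eμ-Myc libraries lay above both wild-type libraries for Mvk and Mvd, while the stages overlapped for Pmvk. None of the 3 genes was called. Their log2 fold changes against wild type were between -0.07 and 0.28 at the premalignant and between -0.05 and 0.30 at the malignant stage. Idi1, Fdps and Acat2 share 84.4%, 65.5% and 42.2% of their exonic 50-base words with other places in the genome, among them Gm13502, Gm3571 and Acat3. Their counts depend on how the counting treated reads with several positions and are uncertain in level.

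Squalene and sterol enzymes held 10 members, of which 2 were called higher in premalignant and 4 in malignant cells against wild type. Of all genes, 19% and 24.9% were called higher in these comparisons. Sqle, squalene epoxidase, which introduces the oxygen of the sterol ring system (NCBIM37 chr15:59146632-59162747, plus strand), was at 21.3 and 12.8 CPM in wild type, 33.2 and 39.7 in premalignant and 38.7 and 62.1 in malignant cells. All Eμ-Myc libraries were above wild type, and the Eμ-Myc stages overlapped. Its log2 fold change was 1.09 (SE 0.33, adjusted p = 0.0474) in premalignant and 1.56 (SE 0.33, adjusted p = 0.0116) in malignant cells against wild type, a 2.95-fold difference in the latter. Lss, lanosterol synthase (chr10:75994333-76019883, plus strand), was at 13.4 and 10.2, then 17.6 and 18.6, then 25.4 and 28.0 CPM. The 3 stages did not overlap for Lss. Against wild type its log2 fold change was 0.62 (SE 0.21, adjusted p = 0.0653) in premalignant and 1.18 (SE 0.21, adjusted p = 0.00652) in malignant cells, and the 0.55 between malignant and premalignant cells was not called (SE 0.21, adjusted p = 0.211).

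Cyp51, lanosterol demethylase (chr5:4081145-4104746, minus strand), was at 27.3 and 12.3 CPM in wild type, 30.2 and 29.9 in premalignant and 51.1 and 44.7 in malignant cells. Its wild-type libraries were further apart than those of any other sterol enzyme, with replicate 2 the lower. The log2 fold change was 0.60 (SE 0.35, adjusted p = 0.239) in premalignant and 1.27 (SE 0.36, adjusted p = 0.0298) in malignant cells against wild type. Ebp, the sterol isomerase, was at 30.9 and 26.8 CPM in wild type, 38.8 and 36.2 in premalignant and 42.8 and 41.4 in malignant cells. Its change was smaller, with a log2 fold change of 0.38 (SE 0.15, adjusted p = 0.101) in premalignant and 0.55 (SE 0.15, adjusted p = 0.0281) in malignant cells, and the latter call was lost with upper-quartile or total count scaling and with a minimum of 10 counts in every library.

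The other 6 enzymes of this arm were not called in any comparison. Fdft1, squalene synthase, lay between 17.7 and 26.0 CPM, Nsdhl, a sterol dehydrogenase, between 12.1 and 16.0, and Tm7sf2, a sterol reductase, between 4.67 and 6.23. Dhcr7, the reductase that makes cholesterol from its last precursor, was at 23.8 and 20.2 CPM in wild type and between 26.9 and 28.9 in the 4 Eμ-Myc libraries, which lay above wild type without a call (log2 fold changes of 0.36 and 0.31, adjusted p of 0.137 and 0.17). Hsd17b7, the sterol ketone reductase, differed more within a stage than between stages, at 26.0 and 10.4 CPM in the malignant libraries against 12.4 to 14.9 in the other 4. Without malignant replicate 2, Hsd17b7 was called higher in malignant cells against both other stages, at log2 fold changes of 0.94 and 0.98. Sc5d, a sterol desaturase, was at 31.4 and 20.1 CPM in malignant cells and between 17.7 and 23.3 elsewhere, and was called higher against wild type only without malignant replicate 2, at a log2 fold change of 0.70. Fdft1 shares 26.9% of its exonic bases with Ctsb on the other strand and Tm7sf2 shares 15.3% with 1110014N23Rik, so these counts are uncertain.

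Of the 5 regulators of the SREBP pathway, 0 were called higher and 1 lower in premalignant cells and 1 higher and 0 lower in malignant cells, both against wild type. Of all genes, 19% were higher and 20.3% lower in the former comparison and 24.9% and 24.3% in the latter. Srebf2, whose product mainly drives sterol genes (chr15:81977696-82035806, plus strand), was at 137 and 138 CPM in wild type, 133 and 154 in premalignant and 188 and 253 in malignant cells. Wild-type and premalignant libraries overlapped and both malignant libraries were above them. The log2 fold change was 0.06 (SE 0.18, adjusted p = 0.83) in premalignant and 0.68 (SE 0.18, adjusted p = 0.0243) in malignant cells against wild type, and 0.62 (SE 0.18, adjusted p = 0.135) between malignant and premalignant cells. The malignant call was lost with total count scaling, without either wild-type library (log2 fold change 0.68 in both cases) and without malignant replicate 2 (0.47), and malignant cells were called higher than premalignant cells without malignant replicate 1 (0.82). Srebf1, whose product mainly drives fatty acid genes (chr11:60012591-60036083, minus strand), was at 87.3 and 126 CPM in wild type, 74.0 and 63.5 in premalignant and 103 and 80.4 in malignant cells. Both premalignant libraries were below both wild-type libraries, with a log2 fold change of -0.63 (SE 0.22, adjusted p = 0.0769), and malignant cells overlapped wild type (-0.22, SE 0.22, adjusted p = 0.476). The Srebf1 call was lost without wild-type replicate 2 (log2 fold change -0.34), premalignant replicate 1 (-0.74) or premalignant replicate 2 (-0.52).

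Insig1 and Insig2, whose products retain SCAP in the endoplasmic reticulum, were not called. Insig1 lay between 32.3 and 48.5 CPM and Insig2 between 13.3 and 22.5, in both cases with malignant replicate 1 the highest library. Insig2 was at 14.1 and 13.3 CPM in premalignant cells, below 20.9 and 17.6 in wild type, with a log2 fold change of -0.49 (SE 0.28, adjusted p = 0.221). Without malignant replicate 2, Insig1 and Insig2 were called higher in malignant than in premalignant cells, at log2 fold changes of 0.55 and 0.68. Scap, the escort of the SREBP factors, lay between 122 and 145 CPM, with log2 fold changes between -0.07 and 0.01 in the 3 comparisons. Stard4, which carries cholesterol between membranes, was at 33.3 and 22.3 CPM in wild type, 36.3 and 41.6 in premalignant and 41.8 and 59.7 in malignant cells. All Eμ-Myc libraries were above wild type, and Stard4 was called in malignant cells, with a log2 fold change of 0.87 (SE 0.26, adjusted p = 0.039), which was lost with total count scaling. Insig1 shares 33.1% of its exonic words with a locus on chromosome 3, which leaves its level uncertain in the same way, and 18.9% of the exonic bases of Scap lie in 5830462I19Rik on the other strand.

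The largest log2 fold change among the 28 genes was that of a fatty acid gene in each of the 3 comparisons, Fasn in both comparisons with wild type and Scd1 between malignant and premalignant cells. Fasn, fatty acid synthase (chr11:120667254-120685492, minus strand), was at 99.3 and 114 CPM in wild-type, 436 and 402 in premalignant and 476 and 564 in malignant cells. Every Eμ-Myc library was more than 3 times as high as either wild-type library. Fasn was higher by a log2 fold change of 1.97 (SE 0.16, adjusted p = 0.00182), or 3.92-fold, in premalignant and by 2.28 (SE 0.16, adjusted p = 0.000628), or 4.87-fold, in malignant cells. Within replicate numbers 1 and 2 the log2 ratio was 2.14 and 1.81 in premalignant and 2.26 and 2.30 in malignant cells. Malignant and premalignant cells differed by 0.31 (SE 0.15, adjusted p = 0.328), which was not called.

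Acaca, acetyl-CoA carboxylase 1, which commits acetyl-CoA to fatty acid synthesis (chr11:83943174-84215153, plus strand), was at 51.1 and 54.3 CPM in wild type, 147 and 148 in premalignant and 167 and 183 in malignant cells. The libraries of each stage were close together, and the stages did not overlap. The log2 fold change against wild type was 1.48 (SE 0.13, adjusted p = 0.00193), or 2.80-fold, in premalignant and 1.73 (SE 0.13, adjusted p = 0.000656), or 3.32-fold, in malignant cells. Of the exonic words of Acaca, 60.5% occur also at a locus on chromosome 12 for which the annotation used here names no gene, so its counts also depend on the treatment of reads with several positions. Acly, ATP citrate lyase (chr11:100337667-100389314, minus strand), was at 296 and 290, then 377 and 429, then 463 and 454 CPM. Its 3 stages did not overlap either, with smaller steps. Acly reached a log2 fold change of 0.46 in premalignant cells (SE 0.13, adjusted p = 0.0445), under the minimum of 0.5 for a call, and of 0.65 in malignant cells (SE 0.13, adjusted p = 0.0109), a call that was lost with upper-quartile or total count scaling.

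Enzymes that modify the finished chain followed other courses. Elovl6, which lengthens palmitate, was at 83.1 and 66.8 CPM in wild type, 131 and 121 in premalignant and 60.1 and 86.4 in malignant cells. Premalignant cells were above both other stages, by a log2 fold change of 0.74 against wild type (SE 0.21, adjusted p = 0.042), and malignant and wild-type cells overlapped. The malignant against premalignant log2 fold change of -0.78 (SE 0.21, adjusted p = 0.123) was not called by the main edgeR fit. It was called by DESeq2 (adjusted p = 0.0205) and under 3 other settings of edgeR, and lay between -1.1 and -0.54 with single libraries left out. Scd1, a stearoyl-CoA desaturase (chr19:44468941-44482199, minus strand), was at 99.1 and 184 CPM in wild type, 77.2 and 80.0 in premalignant and 319 and 199 in malignant cells. The premalignant libraries were the lowest and the malignant libraries the highest, though malignant replicate 2 was close to wild-type replicate 2.

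Scd1 was called higher in malignant cells against premalignant cells, by a log2 fold change of 1.72 (SE 0.35, adjusted p = 0.0646) or 3.29-fold, and against wild type, by 0.87 (SE 0.34, adjusted p = 0.0819). In premalignant compared with wild-type cells the log2 fold change of Scd1 was -0.85 (SE 0.34, adjusted p = 0.104), which was not called by the main edgeR fit. This change was called by DESeq2 (adjusted p = 0.0512) and under 5 other settings of edgeR. It was also called without wild-type replicate 1 (-1.22), malignant replicate 1 (-0.84) or malignant replicate 2 (-0.79), and its adjusted p lay between 0.000175 and 0.505 over all alternatives. Scd2, a neighbouring desaturase gene (chr19:44368166-44381354, plus strand), was at 251 and 362 CPM in wild type, 300.2 and 214 in premalignant and 649 and 528 in malignant cells. Premalignant and wild-type libraries overlapped, and malignant cells were above both. Scd2 was higher in malignant cells by a log2 fold change of 1.20 (SE 0.25, adjusted p = 0.0721), or 2.29-fold, against premalignant and 0.94 (SE 0.25, adjusted p = 0.0259) against wild-type cells. The calls against premalignant cells were lost without premalignant replicate 1 or 2, at log2 fold changes of 1.69 and 1.75 for Scd1 and 1.46 and 0.97 for Scd2, and that of Scd2 also without either wild-type library (1.19 in both cases). Against wild type, the Scd2 call was lost without wild-type replicate 1 (0.71), and the Scd1 call without wild-type replicate 1 (0.49), malignant replicate 1 (0.50) or either premalignant library (0.88 in both cases). With only the 2 stages compared, the Scd2 call against premalignant cells and the Scd1 call against wild type were lost, and the latter was lost also with upper-quartile or total count scaling.

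**Figure D2:**
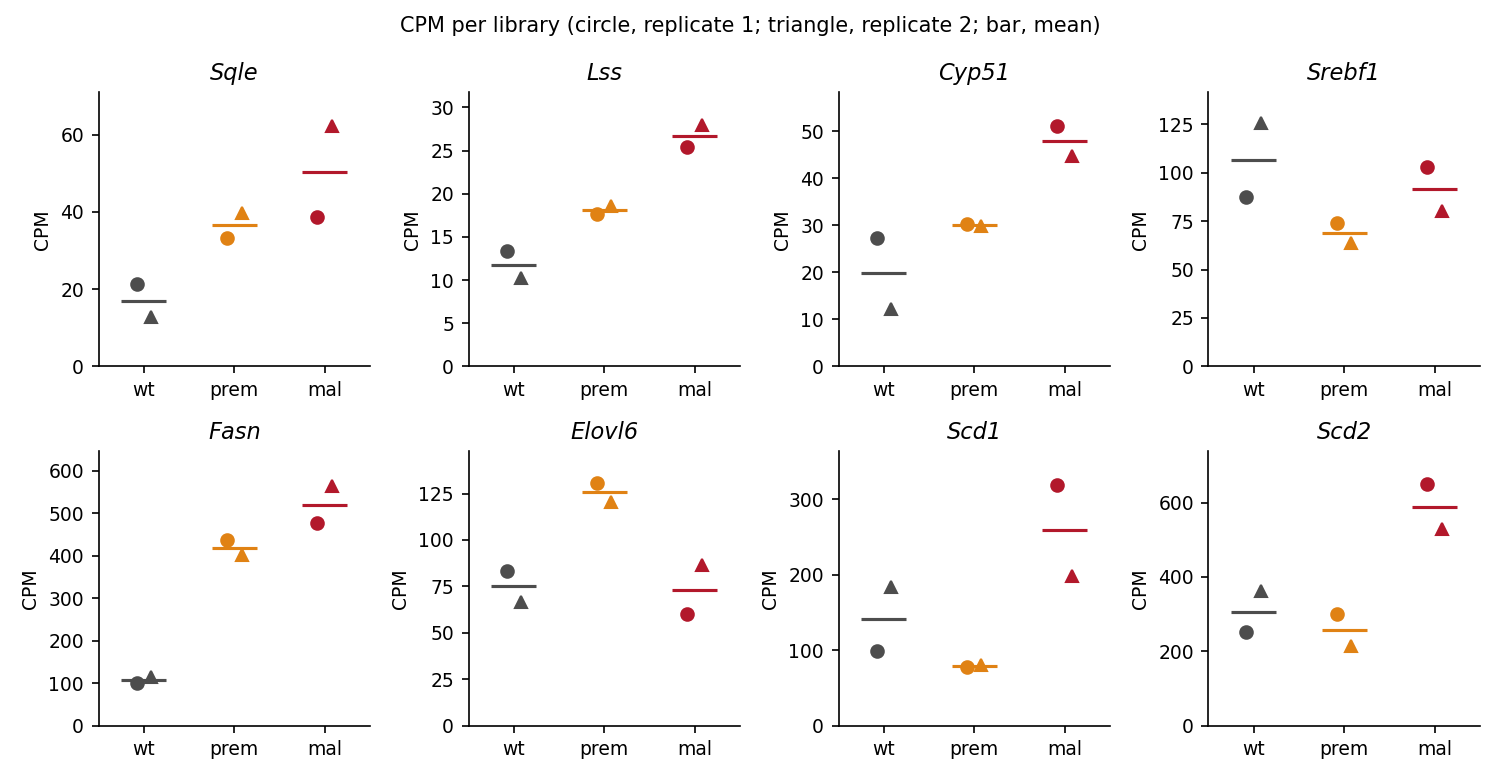
CPM (vertical axes, from 0) of 8 genes in the 3 stages (wt, wild type; prem, premalignant; mal, malignant), with circles for replicate 1, triangles for replicate 2 and bars for stage means. Fasn and Sqle are higher in all Eμ-Myc libraries, Elovl6 is highest and Srebf1 lowest in premalignant cells, and Scd1 and Scd2 are highest in malignant cells.

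**Figure D3:**
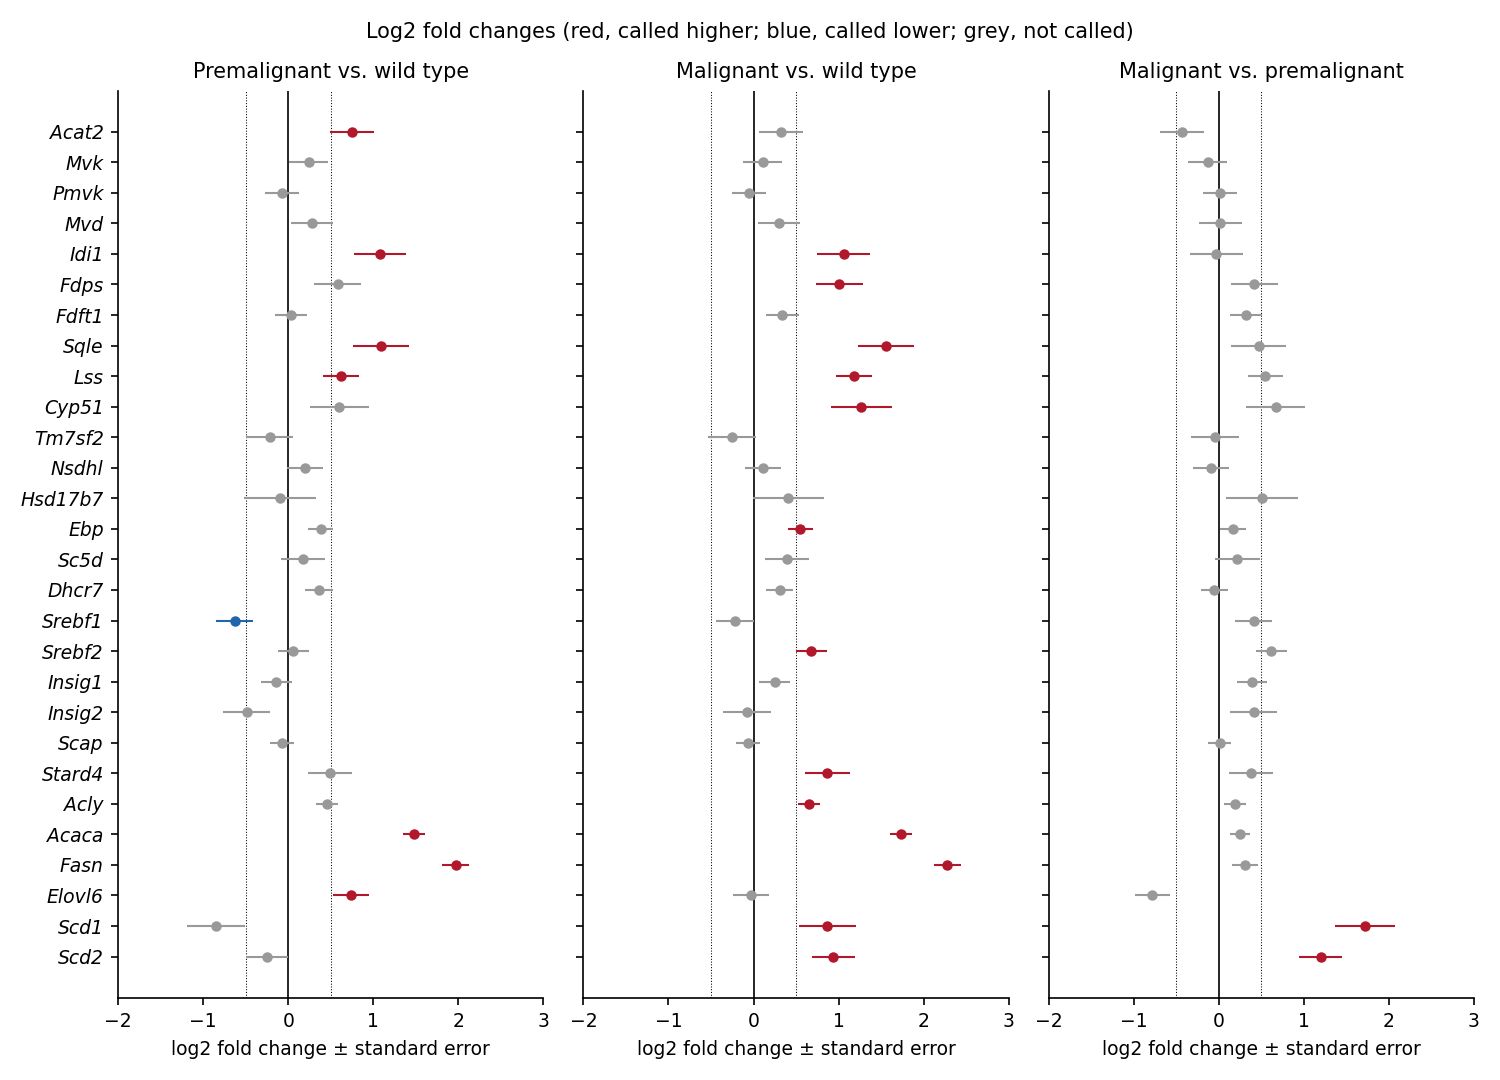
Log2 fold changes with standard errors (horizontal axes) of 28 genes (rows) in 3 comparisons (panels), coloured red where called higher, blue where called lower and grey where not called, with dotted lines at the fold limit of 0.5. The panels hold 7, 13 and 2 red points and 1, 0 and 0 blue points from left to right.

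Summed over the 16 sterol enzymes, levels were 278 and 210 CPM in wild type, 320 and 334 in premalignant and 384 and 390 in malignant cells. For the 6 fatty acid genes the sums were 879 and 1071, then 1467 and 1393, then 2134 and 2014 CPM. Neither sum overlapped between stages. The sums weigh genes by their CPM and do not show that their genes moved together. From wild type to premalignant cells, mean CPM went from 107 to 419 for Fasn, and the means of Acaca, Acly and Elovl6 also rose. Over the same step the mean of Scd1 went from 142 to 78.6 CPM and that of Scd2 from 306 to 257. Wild-type replicate 2 was the lowest library for the sterol sum and the higher of the wild-type libraries for the fatty acid sum, and it also had the highest myeloid and erythroid sums of all libraries. Scd1, Scd2 and Srebf1 were higher in this library than in wild-type replicate 1, while all of the sterol enzymes except Tm7sf2 were lower in it.

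**Figure D4:**
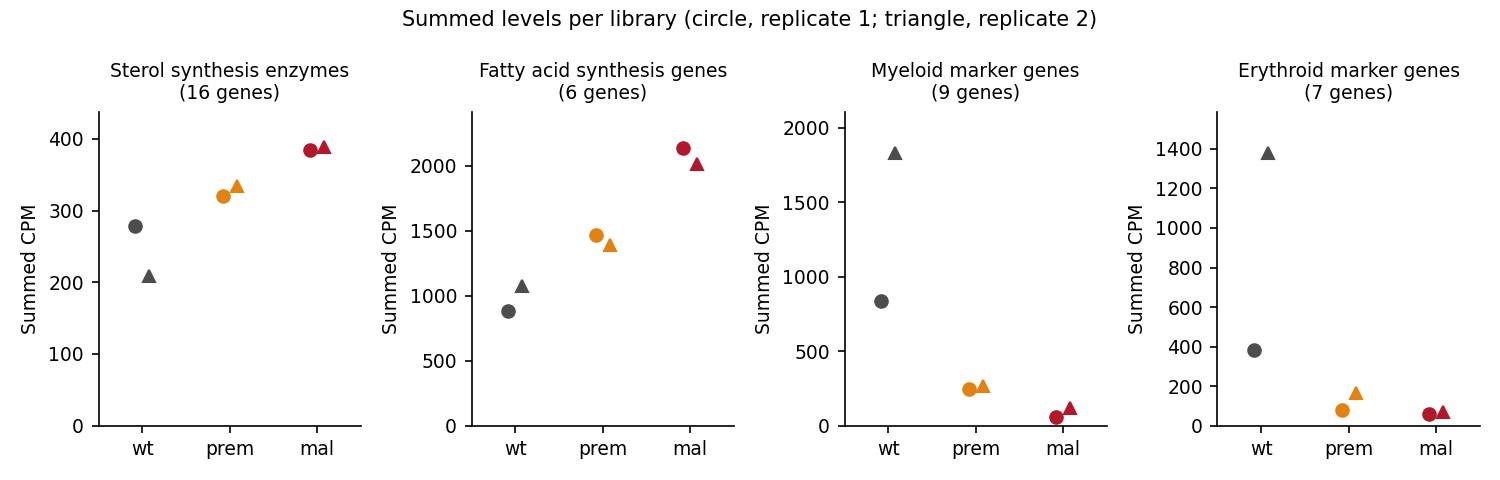
Summed CPM (vertical axes, from 0) of 16 sterol enzymes, 6 fatty acid genes, 9 myeloid markers and 7 erythroid markers in the 3 stages (wt, wild type; prem, premalignant; mal, malignant), with circles for replicate 1 and triangles for replicate 2. The first 2 sums are lowest in wild-type and highest in malignant libraries without overlap, and wild-type replicate 2 stands apart in both marker sums.

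Leaving out wild-type replicate 2 left 2 genes called higher and 0 lower in premalignant cells, and 8 higher in malignant cells. Leaving out either premalignant library also left 2 higher and 0 lower in premalignant against wild-type cells. In each of these settings the calls for Acat2, Idi1, Sqle, Lss, Elovl6 and Srebf1 in premalignant cells were lost. Without wild-type replicate 2 their log2 fold changes were 0.47, 0.74, 0.78, 0.44, 0.60 and -0.34, and adjusted p over the 3 settings lay between 0.141 and 0.350. In malignant cells the calls for Idi1, Fdps, Ebp and Stard4, like that for Srebf2, were lost without wild-type replicate 2, at log2 fold changes of 0.71, 0.73, 0.45 and 0.61. Leaving out wild-type replicate 1 instead gave 9 higher and 2 lower in premalignant and 10 higher in malignant cells, with Cyp51 and Fdps called higher in premalignant cells at 1.29 and 0.95. Without malignant replicate 2, Acly, Fdps and Stard4 were called higher in premalignant cells, at 0.52, 0.64 and 0.54. Calls that were made under every alternative and with any single library left out were those for Acaca and Fasn in premalignant cells and those for Sqle, Lss, Cyp51, Acaca and Fasn in malignant cells, both against wild type. Over these alternatives the adjusted p of Fasn was at most 0.0328 in premalignant and 0.0122 in malignant cells.

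The scaling of the libraries mattered for the smaller differences. Total count scaling, in place of TMM, shifted all genes in the median by a log2 value of -0.21 in premalignant and -0.29 in malignant cells against wild type, and upper-quartile scaling by -0.08 and -0.17. With total counts, 4 members were higher and 3 lower in premalignant cells, and 8 higher and 0 lower in malignant cells. The premalignant calls lost were those for Acat2, Lss and Elovl6, of which Lss was lost also without a filter on low counts. Of the 16683 tested genes, total counts gave 2247 higher and 4438 lower in premalignant, and 2957 and 5367 in malignant cells. With TMM these numbers were 3169 and 3394, and 4153 and 4059. Among all genes called, the share that was higher was 48.3% with TMM and 33.6% with total counts for premalignant, and 50.6% and 35.5% for malignant, against wild-type cells. Between malignant and premalignant cells it was 60.4%, and 49.7% with upper-quartile scaling. The median log2 fold change of the 28 genes was still above 0, at 0.05 in premalignant and 0.10 in malignant cells.

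Levels can be set side by side only per length, as RPKM (CPM divided by exon length in kilobases), and were ranked for the 20 members of which under 10% of words or exonic bases were shared with other loci. In wild-type cells Scd2 was at 56.2 RPKM on average and Acly at 55.5, and their libraries overlapped (46.0 and 66.3 against 56.0 and 54.9). Scd1 followed at 29.3, with libraries at 20.5 and 38.1 that overlapped those of Srebf2, which averaged 27.6. Srebf1 came next at 18.9, and its libraries, at 15.5 and 22.3, lay below those of Srebf2. Fasn held rank 8 of 20 at 10.8 RPKM in wild type, rank 3 at 42.5 in premalignant and rank 4 at 52.8 in malignant cells. Scd1 held ranks 3, 7 and 3, at 29.3, 16.2 and 53.5 RPKM. Lss was the lowest of the 20 in each stage, at 1.09, 1.68 and 2.47 RPKM. Exon lengths count all annotated exons of a gene, and that of Lss, 10787 bases, was the longest of the 20. Its rank depends on this length, as its CPM was above those of Mvk and Mvd in every library. Cyp51 went from 4.62 to 7.01 and 11.2, and Sqle from 3.07 to 6.58 and 9.09 RPKM. The highest of the ranked sterol enzymes, Ebp at 12.5, 16.3 and 18.2, remained ahead of them.

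Enzymes and branches of sterol synthesis outside the 28 genes were examined as a list of 11 genes, of which 6 were called higher in premalignant and 7 in malignant cells against wild type, and 0 lower. Of all genes, 19% and 24.9% were called higher and 20.3% and 24.3% lower in these comparisons. Sc4mol, the sterol C4 methyl oxidase, was not called in any comparison, with log2 fold changes of -0.42 and 0.21 against wild type. Other genes of the list draw on isoprenoids. Pdss1 and Pdss2, which build the ubiquinone side chain, were higher by 1.30 and 0.82 in premalignant and 1.67 and 1.04 in malignant cells, and Fntb, a farnesyltransferase subunit, by 1.00 and 1.18.

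Among 9 genes of SREBP processing and sterol-regulated degradation, 2 were called higher and 2 lower in malignant cells against wild type, and 0 higher and 2 lower in premalignant cells. Of all genes, 24.9% were higher and 24.3% lower in the former comparison and 19% and 20.3% in the latter. Mbtps2, a protease that releases the SREBP factors, was higher in malignant cells by a log2 fold change of 0.75 (adjusted p = 0.0293) and Erlin1, a lipid raft protein of the endoplasmic reticulum, by 0.94 (adjusted p = 0.00574). Sec24d, a coat subunit of vesicles that leave the endoplasmic reticulum, was at 20.9 and 17.8 CPM in wild type and 0.900 and 3.33 in malignant cells, a log2 fold change of -3.22 (adjusted p = 0.00748).

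Genes of sterol uptake, storage and export went in both directions. Of 14 tested of 15 listed, 1 was called higher and 4 lower in premalignant, and 3 higher and 4 lower in malignant cells, against wild type. The shares over all genes were 19% higher and 20.3% lower in premalignant and 24.9% and 24.3% in malignant cells. Abca1, the cholesterol exporter, was at 71.8 and 158 CPM in wild type, 6.54 and 2.53 in premalignant and 37.7 and 8.82 in malignant cells. All 4 Eμ-Myc libraries were below wild type, and the wild-type level was highest in replicate 2, the library with the most myeloid markers. The log2 fold change of Abca1 was -4.64 (adjusted p = 0.0122) in premalignant and -2.30 (adjusted p = 0.0552) in malignant cells. Mylip, a ubiquitin ligase induced by oxysterol receptors, was lower by -2.43 (adjusted p = 0.00237) and -2.24 (adjusted p = 0.00131). Npc1, which exports cholesterol from lysosomes, was lower by -1.78 (adjusted p = 0.0114) and -0.99 (adjusted p = 0.0469).

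Further genes of fatty acid synthesis, elongation and desaturation numbered 14 tested of 15 listed, with 4 higher and 1 lower in premalignant and 6 higher and 4 lower in malignant cells against wild type. The shares over all genes were 19% higher and 20.3% lower in premalignant and 24.9% and 24.3% in malignant cells. Acacb, the mitochondrial acetyl-CoA carboxylase, was at 0.719 and 0.510 CPM in wild type, 1.58 and 4.25 in premalignant and 32.9 and 35.2 in malignant cells. It was near the lower end of the counts in wild type and well above in both malignant libraries, with log2 fold changes of 2.21 (adjusted p = 0.0214), 5.77 (adjusted p = 0.00109) and 3.56 (adjusted p = 0.0282) in premalignant against wild type, malignant against wild type and malignant against premalignant cells. Mecr, the reductase of mitochondrial fatty acid synthesis, was higher by 1.44 and 1.75 against wild type. Fads2, the first desaturase of polyunsaturated fatty acids, was at 19 and 18.2 CPM in wild type, 10.1 and 7.86 in premalignant and 0.586 and 2.80 in malignant cells, a log2 fold change of -3.49 (adjusted p = 0.00947) in the latter. Acss2, which makes acetyl-CoA from acetate, was lower by -0.90 and -1.72.

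Fatty acid oxidation genes, 12 tested of 13 listed, were called higher 3 times and lower 1 time in premalignant cells, and higher 4 times and lower 1 time in malignant cells, against wild type. These 3 and 4 genes of 12 compare with 19% and 24.9% of all genes called higher. Acaa2, a mitochondrial thiolase, was at 22.1 and 23.7 CPM in wild type, 38.4 and 43.4 in premalignant and 84.4 and 70.2 in malignant cells, without overlap of stages. Its log2 fold changes were 0.84 (adjusted p = 0.0132) and 1.76 (adjusted p = 0.00101) against wild type and 0.92 (adjusted p = 0.0467) between malignant and premalignant cells. Hadh, a dehydrogenase of the same cycle, was higher by 1.04 and 1.30, and Hadhb, a subunit of the trifunctional protein, by 0.72 in malignant cells.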

How the data were processed

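Per the labels and the study's methods, the authors processed the reads with CASAVA 1.8.2, aligned them to mm9 with TopHat and counted them per Ensembl gene with HTSeq, whose options are not given in the sources used here. The deposited values are raw counts per gene, without normalization. The deposited DESeq tables hold the authors' means, fold changes and p-values and were not used.

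All 6 libraries entered 1 fit of edgeR 4.0.16 (R 4.3.3) with the stage as the only term, TMM normalization, the default filter on low counts and quasi-likelihood tests adjusted over all genes tested by Benjamini-Hochberg. Calls needed an adjusted p no higher than 0.1 and a log2 fold change of 0.5 or more in size, as in the study's methods. TMM assumes that most genes are unchanged, and without a spike-in a change in total RNA per cell would not be seen. An exact permutation test of 2 against 2 libraries cannot give a two-sided p below 0.333. P-values measure the spread between these libraries only. DESeq2 1.42.0 and other scalings, filters, thresholds, subsets of stages and single libraries left out were alternatives, and a stage left with 1 library was assumed to vary like the others. The fits were tested on simulated data.

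Symbols, exon lengths and coordinates come from GENCODE vM1 on NCBIM37 and promoters from a RefSeq table on GRCm38.p6. Exonic words of 50 bases were searched in the NCBIM37 genome to find shared sequence. The members, gene lists and tests were chosen with earlier results of these data known. The genes named are all members, Myc, Sc4mol, and, of every other pathway list, up to 4 genes with the largest log2 fold change among those called in malignant against wild-type cells. Some genes that this rule names are not reported here. The cell type markers were a separate list.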

Additional observations from a re-analysis of the deposited data

How the results depend on the processing

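The number of members called higher in premalignant against wild-type cells, 7, was 4 with total count scaling and 4 with a minimum log2 fold change of 1, and ranged from 2 to 10 with single libraries left out. The number called lower, 1, was 2 with DESeq2, with upper-quartile normalization, without a filter, with at least 10 counts in every library and with only the 2 stages compared, 3 with total count scaling, 0 at an FDR of 0.05 or a minimum log2 fold change of 1, and 0 to 2 with single libraries left out. In malignant against wild-type cells, 13 higher became 8 with total count scaling and 7 at a minimum log2 fold change of 1, with 8 to 14 over single libraries left out. Between malignant and premalignant cells, 2 higher became 4 without a filter, 1 with only the 2 stages compared and 0 at an FDR of 0.05, with 0 to 5 over single libraries left out, the extremes without either premalignant library and without malignant replicate 2. There, 0 lower became 1 with DESeq2, with upper-quartile normalization, without a filter and with at least 10 counts in every library, and 0 to 1 over single libraries left out. The gene lower in 4 of these settings was Elovl6. The cause of these differences was not tested.

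Replicate numbers are shared by the stages in the labels only, and deviations from the stage means correlated at 0.509, 0.186 and 0.257 between stages with 2 numbers each. With the replicate number as a block, 7 members were higher and 1 lower in premalignant and 13 higher and 0 lower in malignant cells against wild type, and 2 higher and 0 lower between malignant and premalignant cells. In the other pathway lists, the block took the premalignant calls against wild type from 1 lower to 0 for further fatty acid genes (Acss2), from 3 higher and 1 lower to 2 and 0 for oxidation genes and from 4 lower to 5 for uptake genes. Between malignant and premalignant cells it took uptake genes from 2 higher to 1 and SREBP processing genes from 1 higher to 0.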
